A study of Mus musculus with 4 samples.

Results

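The change in gene expression of the mouse dental follicle (DF), the sac of mesenchyme that encloses a growing tooth germ, was described across genes between the stages labelled E17 and PN2. The data came from the array titled DF PN2-DF E17, 1 of the 4 arrays of a mouse study of dental follicle and dental papilla (P), the mesenchyme inside the tooth germ. Of 30146 probes, the 25962 with a gene symbol were taken. They stand for 16039 genes, of which 14238 were compared because at least 1 of the 4 tissue and stage columns held a normalised signal of 100. Each column rests on 1 hybridisation, so there is no replicate error and no p-value. Both follicle groups are total RNA of mouse dental follicle tissue. The strain, the sex, the number of animals pooled and the way the tissue was dissected are not given in the sources used here. The tissue entry of the PN2 channel reads DF PN3, and the labels also hold a whole embryo description and a protocol for cultured stem cells. The sample title was followed.

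The follicle gives rise to the periodontal ligament, the cementum on the root and the bone of the tooth socket. It also gathers the precursors of osteoclasts, the bone-resorbing cells that clear the path of the erupting tooth, and it lies against the jaw bone, whose marrow cavities fill with blood-forming cells around birth. In bulk tissue RNA, more cells of a type and more RNA per cell cannot be told apart.

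Ratios are given as the log2 ratio of DF PN2 over DF E17 after quantile normalisation of the 4 columns, with the probes of a gene averaged. A gene is called higher or lower when it passed 2-fold, the limit named in the study's design text, which is a log2 ratio above 1 or below -1. As a technical error, the log2 ratios of probes of the same gene differed with an SD of 0.46 (root mean square over 6436 genes with several probes). This error covers no variation between animals, and the 7802 genes with 1 probe have none of their own.

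Marker genes of follicle fibroblasts are given first. They were chosen after their values were seen, and the papilla expresses several of them too. Periostin (Postn), a matrix protein of periodontal tissue, had normalised signals of 2515 (DF E17) and 2686 (DF PN2), and 1756 and 1220 in P E17 and P PN2. Osteoglycin (Ogn), a small leucine-rich proteoglycan, had 34240 and 22098 in the follicle and 2226 and 2959 in the papilla. The mesenchymal transcription factor gene Prrx1 had 2265 and 1574, and 871 and 648 in the papilla. Twist1 had 946 and 765, and at E17 the papilla, with 1785, was above the follicle. Among 22 compared genes of the follicle and periodontal ligament fibroblast list, 20 did not pass 2-fold. The enamel protein genes, which mark epithelium that a dissection could carry along, had 85.8 and 103 for amelogenin (Amelx) and 38.3 and 32.9 for ameloblastin (Ambn), below the papilla signals of 162 and 539 for Amelx and 100.0 and 367 for Ambn. The keratin genes Krt5 (1270 and 1555) and Krt14 (574 and 763) of basal epithelium did not pass 2-fold in the follicle. The papilla had 353 and 1267 for Krt5, below the follicle, and 839 and 1259 for Krt14, above it.

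In all, 1123 genes (7.89% of 14238) passed 2-fold, 545 of them upward in DF PN2 (3.83%) and 578 downward (4.06%). The higher side reached farther: 23 genes were higher by more than 16-fold and 0 were lower by that much. The lower calls lay at the dim end of the array. Where the higher of both follicle signals was under 100, 9.74% of 1212 genes were lower and 3.30% higher. Where it was 500 to 1000, 1.71% of 2567 genes were lower and 3.27% higher, and at 5000 or more 2.46% of 651 genes were lower and 5.22% higher. Of the genes with a signal of at least 500, 197 were higher and 116 lower. Of the genes measured by more than 1 probe, all probes passed 2-fold upward in 66 (1.03% of 6436) and downward in 45 (0.699%). Without normalisation 21.2% of the called genes were higher, against 48.5% after it, with a median over genes of -0.23 then and -0.01 after. The share was 62.9% among genes with a signal of at least 500, 61.4% at a limit of 4-fold and 59.5% where every probe had to pass. The dim end of the deposited signals differed as well, with a 5th percentile of 37.5 in DF E17 and 25.7 in DF PN2.

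Calls near 2-fold moved with the scaling. Among the genes named here, Fbln2, Dcn, Pitx1, Igfbp6, Pgam1 and Dll3 were not past 2-fold after median centring nor in the deposited ratios, Vcan and Ism1 were not in the deposited ratios, and Clec1b and H2-Eb1 were not after median centring. Without normalisation Itgam, Trem1, Trim10, Add2, Vpreb2, Clec1b, H2-Eb1, Col24a1, Sfrp4, Hhip, Dll3, Dlx2, Osr2 and Mpzl1 were not past it.

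**Figure D1:**
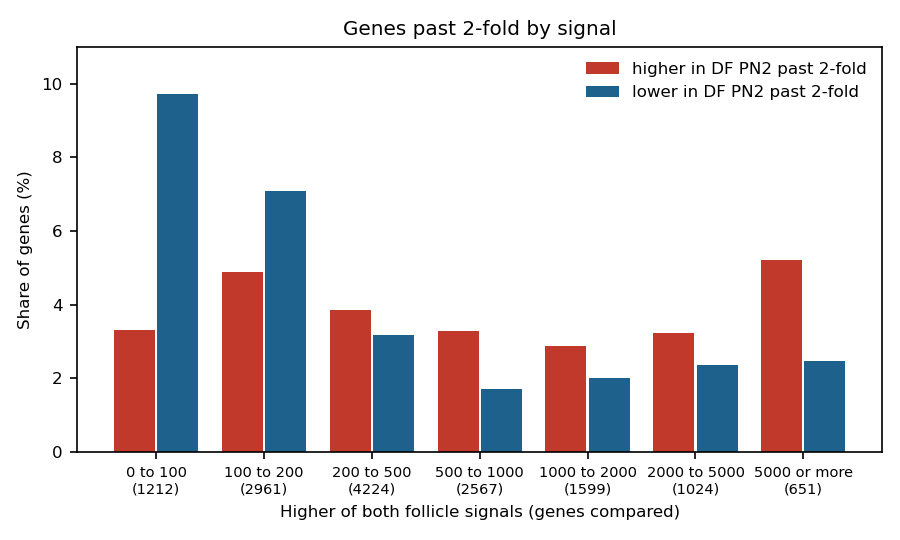
Share of genes past 2-fold (%, vertical axis) by the higher of both follicle signals (horizontal axis, number of genes in brackets), with red bars for genes higher and blue bars for genes lower in DF PN2. Lower genes make up 9.74% of the dimmest class and 1.71% of the class from 500 to 1000, while higher genes stay between 2.88% and 5.22% in every class.

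**Figure D2:**
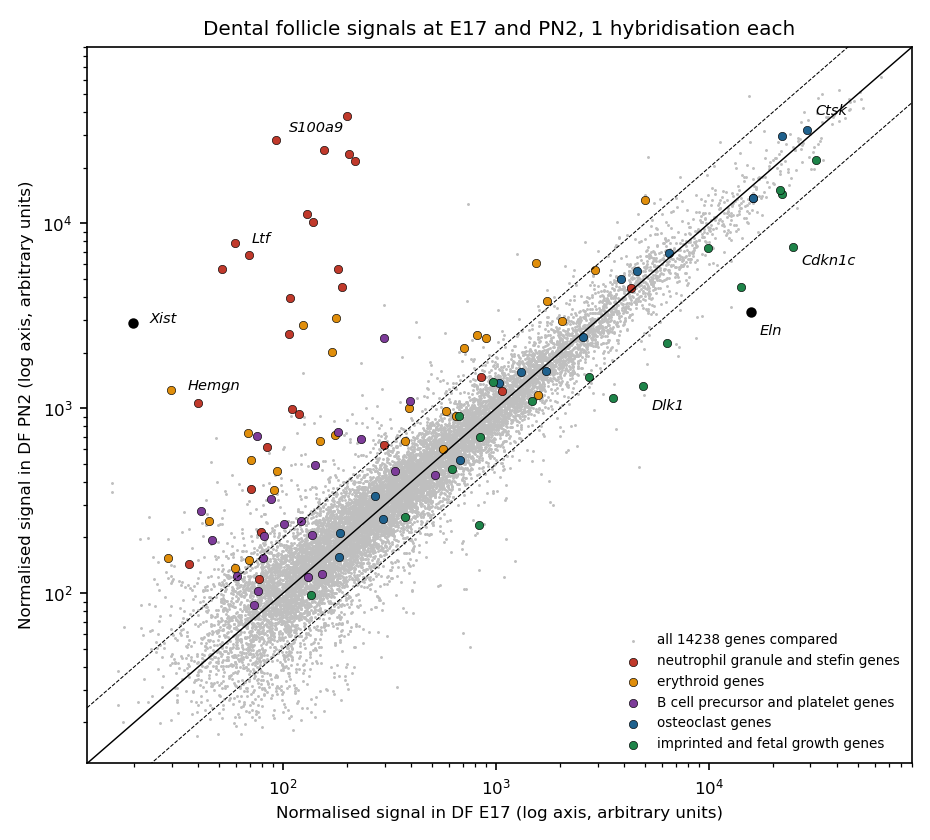
Normalised signal of each of 14238 genes in DF E17 (horizontal) and DF PN2 (vertical), both on log axes, with the line of equality and dashed lines at 2-fold. Neutrophil, stefin and erythroid genes stand far above the upper line, osteoclast genes lie along equality, and Eln, Cdkn1c and Dlk1 lie below the lower line.

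Genes of blood-forming cells carried the upper end of the change. Of 149 compared genes in 18 lists for blood and immune cells, 80 were higher and 3 lower. Of all genes compared, 3.83% were higher and 4.06% lower. The lists were chosen with earlier results of these data known, so these counts describe and do not test. Some members, such as Ngp, Lcn2 and Hemgn, reached the signal filter of 100 in DF PN2 alone. Members dim in all 4 columns were left out. The counts and the list medians thus rest in part on the filter. The listed genes made up 19 of the 25 genes with the highest ratios among those with a signal of at least 500. They made up 0 of the 25 lowest. The neutrophil gene S100a9, a calcium-binding subunit of calprotectin, rose from 92.8 to 28420, a log2 ratio of 8.26. In the papilla it stood at 75.8 in P E17 and 199 in P PN2. Resistin-like gamma (Retnlg) went from 155 to 24852 (7.32), and its papilla signals were 131 and 153. In both genes the PN2 follicle stood alone, and the other columns were all under 200.

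Neutrophils make their granules in order as they mature, first azurophil granules, then specific and then gelatinase granules. Of 4 azurophil genes on the array 2 reached the signal filter. Both were higher: myeloperoxidase (Mpo) rose from 110 to 996 (log2 ratio 3.18) and cathepsin G (Ctsg) from 78.9 to 214 (1.44). Of 8 specific granule genes 7 were higher, with a median log2 ratio of 3.82, against -0.01 over all genes. Lactoferrin (Ltf), which binds iron, rose from 59.2 to 7823, and its probes stood at 6.83 and 7.26. Neutrophilic granule protein (Ngp) rose from 68.9 to 6759 (6.62), the collagenase Mmp8 from 181 to 5653 (4.96) and the siderophore-binding lipocalin Lcn2 from 39.8 to 1073 (4.75). Cybb, the membrane subunit of the phagocyte oxidase, was higher by 2.89 with probes at 2.13 and 3.64. Chil3 (2.38) and the integrin gene Itgam (1.09) were higher too, while Cyba, the other membrane subunit of the oxidase, stood at 0.80 and was not called.

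Of the 9 gelatinase granule and cytosol genes, 6 were higher and 0 lower (median 2.96). Besides S100a9 and Retnlg these were Wfdc21 (5.20), the peptidoglycan-binding protein gene Pglyrp1 (4.58), haptoglobin (Hp, 2.96) and Padi4, the enzyme that citrullinates histones in neutrophils (1.98, probes at 0.75 and 3.22). Mmp9, which osteoclasts also make, stood at -0.23, with signals of 16044 and 13707. Of 10 surface receptor genes compared, 5 were higher and 0 lower (median 1.08): the chemokine receptor gene Cxcr2 (2.25), Clec4d (2.23), the decoy receptor gene Il1r2 (1.54), Pirb (1.35) and Trem1 (1.18). The ratio of Trem1 was 0.99 with signals below 37.9, the 5th percentile over the array, raised to it. Of 6 transcription factor genes of granulocytes 0 were higher and 1 lower, Cebpd (-1.12), and Spi1, which encodes PU.1, stood at 0.22.

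Stefins are small inhibitors of cysteine proteases such as cathepsins, and mice carry a cluster of closely related copies that neutrophils express. Of 8 stefin genes 7 were higher, with a median log2 ratio of 6.53. Cstdc4 rose from 199 to 37891 (7.58), Stfa1 from 204 to 23744 (6.86), Cstdc5 from 218 to 21674 (6.63), Stfa2 from 130 to 11186 (6.43) and Stfa3 from 138 to 10179 (6.21). Csta2 rose from 51.7 to 5646 (6.77). The probes of Csta1 disagreed in size, at 2.44 and 6.69. Copies this alike may share probes, so these 7 genes are not independent measurements. Cstb, the widely expressed stefin B, stood at 0.05 with signals of 4290 and 4450.

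For genes that moved together, the 200 bases before the start site were read from RefSeq (GRCm38.p6) to show what stands in front of them. The 4 neutrophil granule genes and the 2 erythroid genes with the highest ratios among those in the promoter table are given 5′ to 3′, with capitals for matches on either strand to TTGCNNAA, a motif of C/EBP factors of granulocyte genes, or AGATAA, a motif of GATA factors of erythroid genes.
S100a9, chr3:90695722-90695921, minus strand: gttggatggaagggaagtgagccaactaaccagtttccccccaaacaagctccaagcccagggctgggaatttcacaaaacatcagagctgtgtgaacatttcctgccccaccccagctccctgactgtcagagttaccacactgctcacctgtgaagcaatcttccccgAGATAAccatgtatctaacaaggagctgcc
Retnlg, chr16:48872408-48872607, plus strand: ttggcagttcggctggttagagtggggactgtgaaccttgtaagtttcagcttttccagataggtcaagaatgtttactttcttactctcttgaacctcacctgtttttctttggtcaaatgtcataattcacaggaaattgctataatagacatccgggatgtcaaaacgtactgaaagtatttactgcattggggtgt
Ltf, chr9:111019092-111019291, plus strand: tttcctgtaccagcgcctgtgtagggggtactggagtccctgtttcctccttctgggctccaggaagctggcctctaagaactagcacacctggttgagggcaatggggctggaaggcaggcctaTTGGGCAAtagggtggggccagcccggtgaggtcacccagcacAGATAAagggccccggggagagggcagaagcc
Ngp, chr9:110419608-110419807, plus strand: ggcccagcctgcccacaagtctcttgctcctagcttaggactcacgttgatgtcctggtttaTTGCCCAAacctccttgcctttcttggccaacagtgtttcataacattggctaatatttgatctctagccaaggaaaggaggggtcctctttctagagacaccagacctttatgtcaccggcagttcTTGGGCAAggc
Hemgn, chr4:46404184-46404383, minus strand: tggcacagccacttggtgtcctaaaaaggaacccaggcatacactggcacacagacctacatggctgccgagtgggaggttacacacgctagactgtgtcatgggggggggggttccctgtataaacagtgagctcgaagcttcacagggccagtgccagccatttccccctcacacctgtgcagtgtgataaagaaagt
Rhd, chr4:134864336-134864535, plus strand: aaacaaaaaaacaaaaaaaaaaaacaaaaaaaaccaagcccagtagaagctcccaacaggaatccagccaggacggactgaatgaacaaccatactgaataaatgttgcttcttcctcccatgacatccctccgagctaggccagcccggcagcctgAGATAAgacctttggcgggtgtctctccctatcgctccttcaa
Ngp held 2 C/EBP matches and Ltf 1, while S100a9, Ltf and Rhd held 1 GATA match each. The C/EBP motif was in 3 of the 13 windows of higher granule genes and in 7.47% of all 32851 windows of the table, and the GATA motif in 4 of 13 granule windows, in 4 of 14 erythroid windows and in 7.80% of all. A match is a string of letters and not a shown binding site.

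Red cell genes formed the second block. Of 9 regulators of the erythroid lineage 7 were higher (median 1.99) and 0 lower. Hemogen (Hemgn), a nuclear protein of erythroid progenitors, rose from 29.8 to 1263 (5.41), with probes at 4.91 and 5.91, and its papilla signals were 47.4 and 43.6. The GATA factor gene Gata1 was higher by 2.42 (2.03 with its E17 signal of 28.9 raised to 37.9), Nfe2 by 2.17, Klf1 by 2.04, the erythropoietin receptor gene Epor by 1.99, Tal1 by 1.37 and Trim10 by 1.14. The globin switch regulator Bcl11a stood at 0.73 and the transferrin receptor gene Tfrc at 0.82.

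Of 11 red cell membrane genes 10 were higher (median 2.46) and 0 lower. Rhesus protein (Rhd) rose from 124 to 2810 (4.50), the anion exchanger Slc4a1 from 177 to 3076 (4.12), Ermap from 170 to 2014 (3.57) and Cldn13 from 68.4 to 738 (3.43). Of the skeleton proteins under the membrane, ankyrin (Ank1) was higher by 2.90 over 5 probes from 1.53 to 3.90, Epb42 by 2.46, beta spectrin (Sptb) by 2.29 over 3 probes from 0.61 to 4.17 and Add2 by 1.19. The mitochondrial iron carrier Slc25a37 rose from 1548 to 6128 (1.99) and the water channel gene Aqp1, which endothelium expresses too, from 1737 to 3824 (1.14). The exception was the glucose transporter gene Slc2a1 (-0.41), which other cells use as well.

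Globin and haem synthesis genes had smaller ratios (4 of 8 higher, 0 lower, median 1.18). Adult beta globin (Hbb-b1) went from 4997 to 13318 (1.41), while in the papilla it went the other way, from 6017 to 2726. Alas2, the first enzyme of haem synthesis in red cells, rose from 705 to 2113 (1.58), and Cpox (1.62) and Fech (1.42) rose with it. Urod (0.94), Uros (0.49) and Alad (0.09) were not called. The embryonic globin Hbb-y fell from 188 to 84.8 (-1.15).

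Of 12 B cell precursor genes 8 were higher (median 1.35) and 0 lower. The surrogate light chain gene Vpreb1, which marks pro-B and pre-B cells, rose from 75.7 to 708 (3.23). Its partner Igll1 was higher by 2.04, with probes at 0.82 and 3.25, and Mzb1 (2.08), the receptor chains Cd79a (1.88) and Cd79b (1.47), Vpreb3 (1.79), Blnk (1.23) and Vpreb2 (1.01) followed. Cd79b was brighter in the papilla, at 1313 and 2941 (1.16), than in the follicle, at 393 and 1088. In the papilla 2 of the 12 genes were higher and 1 lower. The recombinase gene Rag1 (0.23) and the B lineage factor Pax5 (0.43) were dim, with signals from 73.1 to 103 at both stages, and were not called. Of 9 platelet genes 5 were higher (median 1.02) and 0 lower: platelet factor 4 (Pf4, 298 to 2408, 3.01), the von Willebrand receptor subunit Gp9 (2.75), the fibrinogen receptor subunit Itga2b (1.56), P-selectin (Selp, 1.32) and Clec1b (1.02).

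Of 9 T and NK cell genes on the array 5 were compared. Cd3d, which reached a signal of 100 in DF PN2 alone, was the 1 higher gene (37.2 to 174, 2.23), and Cd4 stood at -0.36. In the eosinophil, basophil and mast cell list the basophil protease Mcpt8 rose from 148 to 910 (2.62) and the mast cell chymase Cma1 fell from 406 to 187 (-1.12). Among 7 progenitor genes Myb, a factor of cycling blood progenitors, was the 1 higher gene. Its mean was 2.42, but its 4 probes ran from 1.29 to 5.16 and their median was 1.61. In the papilla Myb stood higher, at 735 and 454. Cd34, which endothelium expresses too, stood at -0.37.

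**Figure D3:**
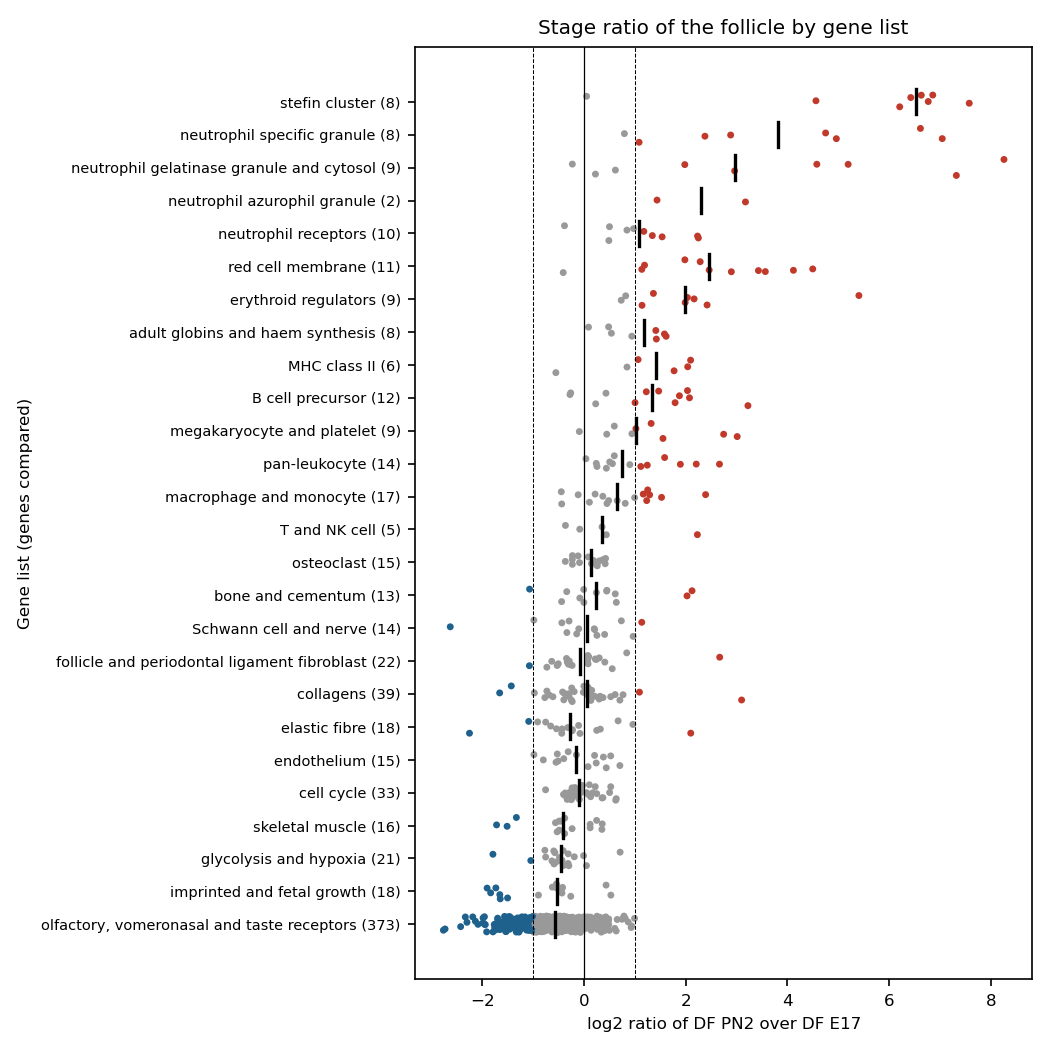
Log2 ratio of DF PN2 over DF E17 (horizontal axis) for the members of 26 gene lists, with a point for each gene compared and a black bar at the list's median. Red points are higher and blue points lower past 2-fold (dashed lines). The stefin, neutrophil and red cell lists stand to the right, the osteoclast, endothelium and cell cycle lists have no coloured point, and the imprinted list has 6 blue points.

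The 6 genes of the 25 highest that stood outside the blood and immune lists were Xist and Tsix, given with the sex-linked genes, and Olfm4, Slfn14, Npy and Cd33. Olfactomedin 4 (Olfm4), a protein of neutrophil specific granules and of gut crypt cells, rose from 55.9 to 1269 (4.50, probes at 4.22 and 4.79). The myeloid surface receptor gene Cd33 rose from 298 to 3627 (3.61), and Slfn14, a ribosome-associated endoribonuclease gene, from 48.6 to 691 (3.83). Neuropeptide Y (Npy), a transmitter of sympathetic nerves, rose from 124 to 1551 (3.64). Among genes with every probe past 2-fold, the tetraspanin gene Tspan33 (126 to 819, 2.70), the protease inhibitor gene Slpi (21.2 to 197, 3.21, or 2.38 against 37.9) and the retinoid-binding protein gene Rbp7 (127 to 565, 2.16) were among the 15 highest. Of 12 iron and haem handling genes 3 were higher and 1 lower (33.3% called, against 7.89% of all genes), with a median of 0.20. Besides Hp, the higher genes were the phagosomal metal transporter gene Slc11a1 (496 to 1540, 1.63) and Blvrb (872 to 2151, 1.30), a haem breakdown enzyme gene that red cells express. The lower gene stood at -1.15.

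Macrophage genes had smaller ratios than granule genes. Of 17 macrophage and monocyte genes 6 were higher (median 0.66) and 0 lower. The papilla shared this rise, with 4 of the same 17 genes higher, 0 lower and a median of 0.72. The lysozyme gene Lyz2, which neutrophils share, rose from 728 to 3825 (2.39), and Ly6c2 (1.53) and the monocyte chemokine receptor gene Ccr2 (1.25) are genes of monocytes. The complement genes C1qb (1.29) and C1qc (1.17) and Aif1 (1.23) were the others. The growth factor receptor gene Csf1r stood at 0.49 (4194 and 5877) and Cd68, a lysosomal protein of resident macrophages and osteoclasts, at -0.44. Of 14 genes shared by all leukocytes 6 were higher and 0 lower (median 0.75), among them Vav1 (2.67), Coro1a (2.21), Cd52 (1.90), Arhgdib (1.59) and the CD45 gene Ptprc (1.25). Tyrobp, which osteoclasts also express, was at 10544 and 10840.

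MHC class II genes encode the proteins that present antigen to helper T cells. In the follicle 4 of 6 were higher and 0 lower (median 1.42, lowest -0.55): H2-Aa (2.10), the invariant chain Cd74 (244 to 1005, 2.04), H2-Ab1 (1.77 over 4 probes from 0.39 to 2.66) and H2-Eb1 (1.07). In the papilla 3 of the same 6 passed 2-fold, with Cd74 at 2.17, H2-Aa at 1.12 and H2-Eb1 at 1.04, while H2-Ab1 stood at 0.19. Of 17 MHC class I and interferon response genes only Rsad2 (2.15, probes at 2.07 and 2.22) and the peptide transporter gene Tap1 (1.94) were higher (median 0.18). Isg20, an exonuclease gene induced by interferon, was higher by 2.65 with both probes past 2-fold. Among 12 chemokine genes Ccl6 (422 to 2925, 2.79), Ccl3 (2.27, or 1.65 with its signal of 24.7 raised to 37.9) and Ccl4 (1.66) were higher, and the neutrophil attractant Cxcl1 was lower (150 to 41.8, -1.85). The complement receptor gene C5ar1 was higher by 2.12.

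Of 15 osteoclast genes 0 passed 2-fold in either direction, where 7.89% of all genes did. In a list this short a count of 0 lies near that share. Their ratios lay between -0.37 (Ocstamp) and 0.43 (Acp5), with a median of 0.15. Their signals ran from 182 to 28886 in DF E17 and from 156 to 32022 in DF PN2. Cathepsin K (Ctsk), the collagenase of resorbing osteoclasts, had 28886 and 32022, tartrate-resistant acid phosphatase (Acp5) had 22140.2 and 29755, and the fusion protein gene Dcstamp had 1723 and 1593. Col1a1, at the top of the signal range, had the same normalised signal, 51327, in both columns. Of the 9 signals tied to tooth eruption 0 passed 2-fold, which lies near the share of all genes as well. The colony-stimulating factor gene Csf1 had 2844 and 2732, Pth1r, the receptor gene of parathyroid hormone, 217 and 268, the osteoclast-forming ligand Tnfsf11 161 and 119 (-0.44) and its decoy receptor Tnfrsf11b 61.7 and 92.8 (0.59).

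**Figure D4:**
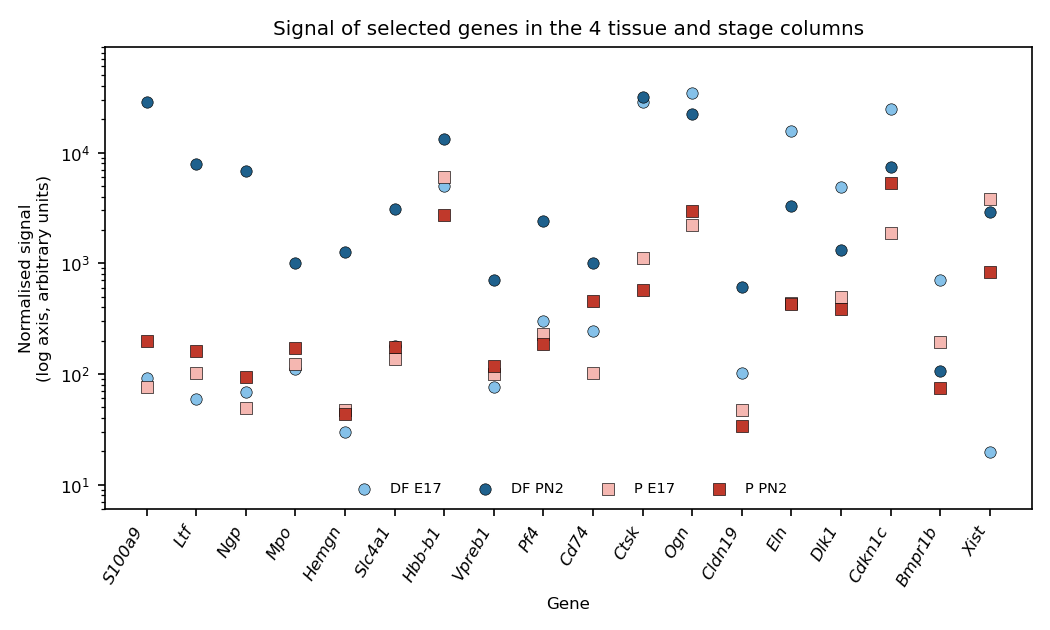
Normalised signal (log axis) of 18 genes in the 4 tissue and stage columns, with circles for follicle and squares for papilla, pale for E17 and dark for PN2, and 1 hybridisation behind each point. For S100a9, Ltf, Hemgn and Vpreb1 the PN2 follicle stands apart from the other 3 columns, for Ctsk both follicle points lie together above the papilla, and for Xist the E17 follicle stands below the other 3.

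Of the matrix lists, 20.8% of the proteoglycan genes, 16.7% of the elastic fibre genes and 10.3% of the collagen genes passed 2-fold, against 7.89% of all genes. Elastin (Eln), the core of elastic fibres, fell from 15703 to 3303 (-2.25), while the papilla held 437 and 425. Of 18 elastic fibre genes, fibulin 2 (Fbln2, 25806 to 12169, -1.08) was also lower and the latent TGF-beta binding protein Ltbp2 was higher (98.0 to 420, 2.10). Of 24 proteoglycan and matricellular genes 4 were lower and 1 higher. Lower were decorin (Dcn, -1.07), Omd (-1.07), Prelp (-1.03) and versican (Vcan, -1.01 over 5 probes from -1.17 to -0.73), and higher was Spon2 (1.47). Decorin went from 2740 to 1304 in the follicle and from 350 to 1459 in the papilla. Abi3bp, a matrix-bound protein, was lower by every probe, from -2.48 to -2.13.

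Of 39 collagen genes 2 were higher and 2 lower. Col8a2, a short-chain collagen, fell from 6983 to 2216 (-1.66) and Col6a5 from 566 to 210 (-1.43). Col28a1, a collagen of peripheral nerve, rose from 23.1 to 199 (3.10, or 2.39 against 37.9). Col24a1 was higher by 1.09, but its probes stood at 0.50 and 1.68. Fibrillar collagen Col3a1 went from 5809 to 4955 (-0.23). Tenascin N (Tnn), a matrix protein of developing bone and periodontal tissue, was the 1 higher gene of the fibroblast list, with a rise from 33.5 to 213 (2.67). In the papilla Tnn went from 147 to 462. Of 19 matrix proteases and inhibitors only Mmp8 was higher, which the specific granule list holds too.

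Of 13 bone and cementum genes 2 were higher and 1 lower (23.1% called, against 7.89% of all genes). The mineralisation phosphatase Phospho1 rose from 292 to 1274 (2.13) and the citrate carrier Slc13a5 from 122 to 497 (2.03). Osteomodulin (Omd) was the lower one. Bone sialoprotein (Ibsp) had 15085 and 20649 (0.45), the osteoblast factor gene Sp7 had 576 and 786 (0.45) and osteocalcin (Bglap) 771 and 1199 (0.64). The next genes come from other lists. Smpd3, a sphingomyelinase needed for mineralisation, was higher by 1.47 with all 3 probes past 2-fold. In its odontoblast and dentin list 2 of 8 genes were higher and 0 lower. Creb3l1, a factor of collagen secretion in osteoblasts, was higher by 1.47. It was the 1 higher gene of 23 protein folding and collagen secretion genes. Of those 23, 1 was lower and 15 lay below 0 (median -0.15).

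Of the signalling lists, 5.13% of the BMP genes, 8.33% of the FGF genes, 10.8% of the Wnt genes, 16.7% of the Hedgehog genes and 23.5% of the Notch genes passed 2-fold, against 7.89% of all genes. In the BMP, TGF-beta and activin list 0 of 39 were higher and 2 lower, the receptor gene Bmpr1b (706 to 106, -2.74) and the ligand gene Bmp6 (2000 to 791, -1.34, both probes past 2-fold). The mediator Smad2, outside that list, was lower by 1 probe (616 to 167, -1.88). In the FGF list 0 of 24 were higher and 2 lower: Fgf18 (878 to 238, -1.88), a ligand of bone and cartilage growth, and Fgf10 (148 to 51.0, -1.53). Among 37 Wnt genes the agonist Rspo1 (479 to 1409, 1.56), Sfrp4 (3629 to 7490, 1.05) and Wnt5a (1.16) were higher and the inhibitor Dkk2 (776 to 248, -1.65) lower. The probes of Wnt5a disagreed, at -0.25 and 2.57, and its mean was 0.84 with dim signals raised to 37.9. Sonic hedgehog (Shh), a ligand of dental epithelium, rose from 94.0 to 344 (1.87), and the Hedgehog-binding inhibitor Hhip from 679 to 1419 (1.06). Among 17 Notch genes Jag2 (30.4 to 119, 1.98, or 1.66 against 37.9) and Dll3 (1.01) were higher and Jag1 (3568 to 1360, -1.39, with 1 of its probes at -0.78) and the endothelial receptor gene Notch4 (-1.09) lower.

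Of 19 transcription factors of tooth mesenchyme 3 were higher and 1 lower. Msx2, a homeobox gene that the papilla expresses strongly, rose in the follicle from 235 to 1177 (2.33), beside 5355 and 7722 in the papilla. Dlx2 (1.03) and Osr2 (1.06) were higher, and Pitx1 (1206 to 596, -1.02), which patterns the lower jaw, was lower. Pax9 stood at 0.65 and Msx1 at -0.19.

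Imprinted genes are expressed from 1 parental allele, and many regulate fetal growth. Of 18 compared, 6 were lower and 0 higher, where 4.06% of all genes were lower and 3.83% higher. Of the 18, 16 lay below 0. The median log2 ratio was -0.54, which stayed below 0 under every scaling tried (-0.74 to -0.41). Dlk1, which holds back differentiation of mesenchymal cells, fell from 4908 to 1312, with probes at -1.98 and -1.82. Peg10 (834 to 234, -1.83), the cell cycle inhibitor Cdkn1c (24748 to 7458, -1.73), the zinc finger gene Plagl1 (14202 to 4515, -1.65), Zim1 (3549 to 1135, -1.64) and Mest (6362 to 2249, -1.50) followed. The growth factor gene Igf2 went from 32022 to 22029 (-0.54) and H19 from 22098 to 14369 (-0.62), neither past 2-fold. In the papilla the same genes did not share a direction: Mest stood at -2.54, Dlk1 at -0.38, and Plagl1 at 1.71, while Cdkn1c went from 1861 to 5267. In the IGF system 1 of 13 genes was called (7.69%, near the 7.89% of all genes). It was the binding protein gene Igfbp6, which was lower (2435 to 1192, -1.03).

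Other genes among the 25 lowest with a signal of at least 500 were Sncg (1861 to 301, -2.63), a synuclein of peripheral neurons, Kif5a (2139 to 579, -1.88), a neuronal kinesin, Capn6 (7134 to 1920, -1.89) and Nrk (816 to 212, -1.94). Kif5a was lower by both probes. The mTOR inhibitor gene Deptor stood at -1.77 on average, but its probes stood at -3.04 and -0.50. Speer4d, Speer4a and Speer4b, members of a family of near-identical genes, were lower together (-2.07, -1.76 and -1.93) and may share probes. Of 63 ribosomal protein genes Rpl14 was lower (-1.86, 1 probe) and Rps29 (1.28) and Rpl36 (1.22, both probes past 2-fold) were higher. The 63 genes had a median of -0.22, which became 0.02 in the deposited ratios.

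Further low genes come from the ranking and stand for no list. The GABA receptor subunit gene Gabra3 fell from 407 to 78.6 (-2.37, probes at -2.72 and -2.03) and the glutamate receptor subunit gene Gria1 from 1008 to 355 (-1.51, probes at -1.58 and -1.43). The potassium channel gene Kcnb2 fell from 693 to 173. Calml4, a calmodulin-like protein gene, fell from 1791 to 310 (-2.53) and Klf14, a zinc finger factor gene, from 720 to 163 (-2.14). Orly, a Y chromosome locus with 1 probe, fell from 721 to 106 (-2.77) and is given again with the sex-linked genes. The others of the 15 lowest by every probe were Tfcp2l1 (-1.84), Meis2 (-1.83, or -1.57 against 37.9), Dubr (-1.74), Colgalt2 (-1.74), Sh3rf3 (-1.57), Rprm (-1.53), Pde3a (-1.42) and Plekha6 (-1.38), with E17 signals from 105 to 434. Of 23 keratin genes 3 were lower and 0 higher, where 4.06% of all genes were lower. They were Krt15, Krt26 (-1.37) and Krt18 of simple epithelia, which had 2002 and 710 (-1.50). Of 14 kallikrein genes 3 were lower and 0 higher, with Klk12 at -2.73, or -2.41 against 37.9. The other lower kallikreins were not past 2-fold against 37.9 (-0.81 and -0.87). The higher follicle signal was under 500 in all 14 kallikrein genes and in 19 of the 23 keratin genes. In the signal classes under 500, from 3.17% to 9.74% of genes were lower. Of 22 serpin genes Serpina3n was higher (29.8 to 113, 1.93, or 1.58 against 37.9) and Serpina5 lower (307 to 58.3, -2.40). That is 9.09% called, near the 7.89% of all genes.

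Of 14 Schwann cell and nerve genes 1 was higher, 1 lower (Sncg, -2.63) and 12 not past 2-fold, with 7 above 0 and 7 below. Myelin basic protein (Mbp) was higher (1083 to 2384, 1.14, 3 probes from 0.58 to 1.75), and Sox10, the factor of Schwann cells, went from 1258 to 2461 (0.97, not past 2-fold). Outside the list, 2 further genes of myelinating cells were among those with every probe highest: the junction protein gene Cldn19 (101 to 615, probes at 2.47 and 2.73) and plasmolipin (Pllp, 99.4 to 599, 3 probes from 2.33 to 3.02). Together with Col28a1 they were dim in the papilla, at 24.2 to 75.8 in P E17. They were picked from the ranking and not from a list, so no count can be set beside them.

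Lists for other cell types that a follicle sample could hold differed in their share of calls, against 7.89% over all genes. Of 15 endothelial genes 0 passed 2-fold (median -0.15), with VE-cadherin (Cdh5) at 622 and 438 and Kdr at 361 and 426. The same held for 12 pericyte and smooth muscle genes (median -0.18) and 9 adipocyte genes. Of 16 skeletal muscle genes 3 (18.8%) were lower, where 4.06% of all genes were, and 0 higher (median -0.42). The lower genes were the acetylcholine receptor subunit Chrna1 (-1.72, or -1.30 against 37.9), Actn3 (275 to 96.5, -1.51) and Myl1 (151 to 60.3, -1.33). The higher follicle signal was under 500 in 15 of the 16. In the signal classes under 500, from 3.17% to 9.74% of genes were lower. Of 15 epithelial genes 5 (33.3%) were called. Higher were 2, Shh and Dsc3 (1.27), and lower were 3, Krt15 (-1.71), Epcam (-1.28) and Lor (-1.17, not past 2-fold against 37.9), while the list median of 0.29 became -0.15 without normalisation.

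Of 33 cell cycle genes 0 passed 2-fold, where 7.89% of all genes did, with Mki67 at 2241 and 2373. In the papilla 14 of the same genes were lower. The median was -0.09 in the follicle and 0.07 in the deposited ratios. The CDK inhibitor gene Cdkn1a was higher in the follicle (2322 to 5616, 1.27). Glycolysis and hypoxia genes had 2 of 21 lower, Ankrd37 (1101 to 319, -1.79) and Pgam1 (-1.04), and 19 of 21 below 0 (median -0.45), with Ldha at -0.57. The metal-binding metallothioneins Mt2 (15390.3 to 48827, 1.67) and Mt1 (137 to 375, 1.45) rose together. Of 18 immediate early and heat shock genes 1 was higher, Fosb (1.47), and 15 lay above 0 (median 0.51). Of 11 housekeeping genes 0 passed 2-fold, from Gapdh at -0.48 to Tfrc at 0.82.

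Receptors of smell, pheromone and taste, best known from sensory epithelium, made up 97 of the 578 lower genes and 0 of the 545 higher ones. They are 2.62% of the genes compared and 16.8% of the lower genes. Their median higher follicle signal was 115, against 378 over all genes compared, and their median log2 ratio was -0.57. The lower genes named here were taken from those with a signal of at least 500, from those with several probes or from gene lists.

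The sex-linked genes differed between the columns. Xist, the RNA of the inactive X chromosome of female cells, had a signal of 19.7 in DF E17, 2890 in DF PN2, 3846 in P E17 and 827 in P PN2. Its log2 ratio in the follicle was 7.20, or 6.25 with the E17 signal raised to 37.9. Its antisense partner Tsix was higher by 4.11. The Y-linked genes Ssty1 (1222 to 149, -3.04), Uty (580 to 197, -1.56) and Eif2s3y (413 to 181, -1.19) were lower. So was Orly, a Y chromosome locus outside the list (-2.77, and -0.04 in the papilla). In the papilla Xist stood at -2.22 and Eif2s3y at 2.64, the opposite way. A change in the sex of the animals pooled and the change in stage cannot be told apart in these columns.

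The stage change of the follicle was set beside that of the papilla, which rests on 2 other hybridisations. Rps29 and Mpzl1 (1.07) were higher in the follicle where the papilla stood at -2.48 and -1.89, and Ism1 (-1.06) and Ptpru (-1.26) were lower where it stood at 2.56 and 1.97. In the papilla 933 genes were higher (6.55%) and 725 lower (5.09%). Across 14238 genes, which are not independent replicates and share the normalisation, the ratios of both tissues were weakly related (Pearson r 0.173, Spearman rho 0.198). Higher in both tissues were 91 genes, 16.7% of those higher in the follicle and 9.75% of those higher in the papilla. Lower in both were 78, 13.5% and 10.8% of the respective lists. Among these were Smad2, Gria1, Fgf10 and Vcan, which stood at -2.50, -1.50, -1.76 and -1.02 in the papilla. Shared rises included Cd74, Shh, Phospho1 and Ltbp2, which stood at 3.27 (Shh), 3.44 (Phospho1) and 3.44 (Ltbp2) in the papilla. S100a9 (1.39), Stfa1 (1.07) and Stfa2 (1.12) were past 2-fold in the papilla too, at far lower signals. In the papilla 0 of 11 red cell membrane genes were higher and 2 lower (median -0.32), and 0 of 8 specific granule genes passed 2-fold (median 0.64). With 1 hybridisation per column the difference between the tissues could not be tested.

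**Figure D5:**
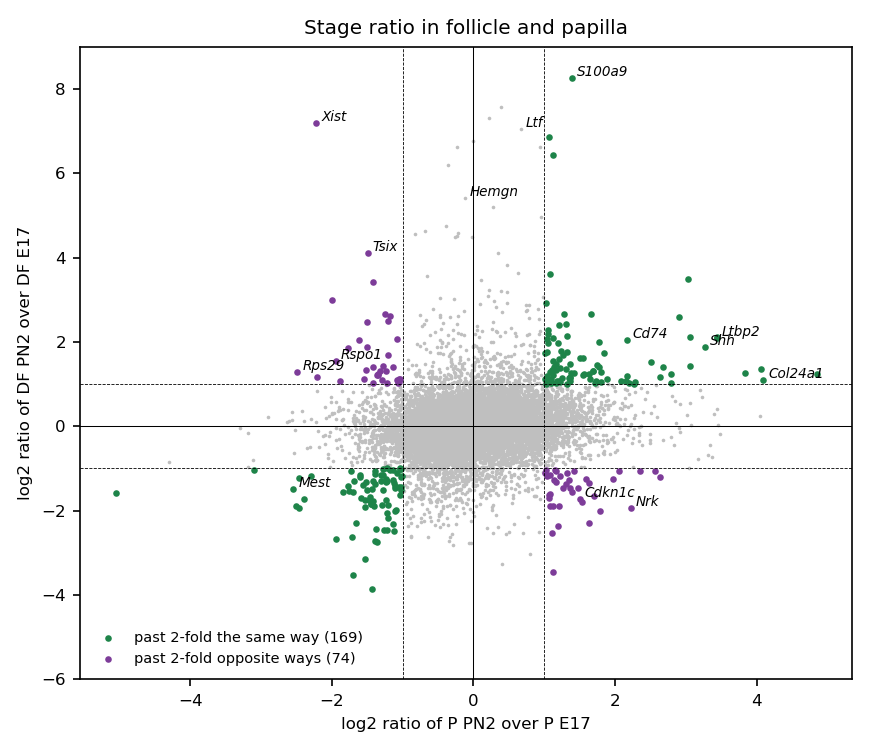
Log2 ratio of PN2 over E17 in the follicle (vertical) against that in the papilla (horizontal) for 14238 genes, with dashed lines at 2-fold. The 169 genes past 2-fold the same way are green and the 74 past it in opposite directions are purple, and the highest point, S100a9, lies at 8.26 for the follicle and 1.39 for the papilla.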

How the data were processed

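The members and gene lists were chosen with earlier results of these data known. Per the labels, the 4 arrays are 2-colour Agilent arrays of mouse dental follicle and papilla. The submitters' processing notes name Agilent Feature Extraction 8.5.1.1. The deposited values are linear signal intensity in columns that the file headers name by sample, with background treatment not given in the sources used here. A tissue and stage has identical signals in both arrays that hold it (100% of probes for DF E17, DF PN2 and P PN2). The column headed DF E17 on the array titled P PN2-P E17, 1 column in all, was not used. A deposited table gives log10 ratios per array. For DF PN2-DF E17 it equals the log ratio of the signals plus a constant (0.32 as log2; 99.997% of probes within 0.001 as log10), of origin not given in the sources used here.

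Signals were turned to log2 without a pseudocount, quantile normalised over the 4 columns of 30146 probes and averaged over the probes of a symbol of the platform table (4184 probes had none; 25858 matched RefSeq by gene number, with 0 symbols changed). Genes reaching a signal of 100 in any column were compared (1801 did not), and calls were made at 2-fold. No p-value was computed with 1 hybridisation a side, and the number of arrays limits the precision. Signals under the 5th percentile (37.9) were also raised to it. Genes named were drawn from the 25 highest and 25 lowest genes with a signal of 500, the 15 highest and 15 lowest by every probe, called members of 66 lists and genes called oppositely in the papilla. Defining markers and members not called were named after their values were seen. Alternatives covered scaling, filter, floor, probe summary and threshold. The pipeline was tested on simulated data. Python 3.11.15, numpy 2.4.6, pandas 2.3.3 and matplotlib 3.10.9 were used. Protein sequences were not used here.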

Additional observations from a re-analysis of the deposited data

Results flagged for a closer look

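Of the genes named, 27 were past 2-fold in opposite directions in the follicle and the papilla. With 1 hybridisation per tissue and stage none of these differences was tested, and each value is the follicle's log2 ratio of PN2 over E17 minus that of the papilla. The sex-linked genes differed by 9.42 for Xist, 5.61 for Tsix, -3.83 for Eif2s3y and -2.94 for Uty. Higher in the follicle and lower in the papilla were the red cell genes Cldn13 (4.85), Epb42 (3.97), Klf1 (3.65) and Hbb-b1 (2.56), the basophil protease Mcpt8 (3.80), the plasma and B cell gene Mzb1 (3.16), the Wnt agonist Rspo1 (3.50), Dlx2 (2.26), the ribosomal protein gene Rps29 (3.77) and Mpzl1 (2.96). Lower in the follicle and higher in the papilla were the matrix genes Abi3bp (-3.94), Dcn (-3.13) and Omd (-2.24), and the imprinted genes Plagl1 (-3.36) and Cdkn1c (-3.23). The same held for the neuronal genes Kcnb2 (-3.78), Gabra3 (-3.57) and Kif5a (-3.09), and for Nrk (-4.16), Ism1 (-3.63), Ptpru (-3.23), Fgf18 (-2.96) and Epcam (-2.62).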

How the results depend on the processing

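The count of higher genes stayed within 1.5 times 545 and that of lower genes within 1.5 times 578, with exceptions. Without normalisation 1357 genes were lower. With a signal of at least 500 there were 197 higher and 116 lower, at a 4-fold limit 113 and 71, and with every probe past 2-fold 66 and 45, since fewer genes can pass each of these. Over 6 alternatives, 31 of 1470 values of the 245 genes named moved beyond the SD between probes, 0.46. Of 197 called genes named, 0 changed sign, which says little about how stable they are. Called genes lie more than 1 log2 unit from 0, while the median over genes moved only between -0.23 and 0.09. The sign of the median changed between scalings in 29 of 66 lists. Of 197 called genes named, 14 were not past 2-fold without normalisation, 8 after median centring, 8 in the deposited ratios and 3 with dim signals raised. No paired analysis was possible because each tissue and stage rests on 1 hybridisation. Signals near the floor limit 159 of the lower and 63 of the higher calls, where the dimmer follicle signal was under 37.9.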
